A study of Rattus norvegicus with 6 samples.

Results

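The genes described here encode the machinery of oxidative phosphorylation: subunits and assembly factors of the respiratory chain, the ATP synthase, the carriers that feed it and the voltage-dependent anion channels (VDACs) of the outer membrane. They were chosen by gene symbol from the annotation of a rat expression array, among probe sets annotated to 1 gene, and each gene was read on its probe set of highest mean over the 6 arrays. This gave 91 genes of the 10411 with such a probe set. Grouped by symbol, they comprise 36 complex I subunits, 5 complex I assembly factors, 4 subunits of complex II, 8 of complex III, 16 of complex IV, 16 genes of the ATP synthase, 3 inner membrane carriers and 3 VDACs. The complex IV genes include Cox6c-ps1, annotated as a pseudogene, which is kept in all counts below. The series measured the pancreas of rats fed an ethanol diet (n = 3) and of rats fed a control diet (n = 3), with 1 array for each rat, to ask what chronic ethanol intake does to this organ. The labels name neither the rats' strain, age and sex nor the ethanol dose and the length of feeding.

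In the inner mitochondrial membrane, complexes I and II take electrons from metabolites and pass them to ubiquinone, complex III hands them to cytochrome c, and complex IV hands them to oxygen. Complexes I, III and IV pump protons, and the ATP synthase (complex V) uses their return flow to make ATP. The phosphate carrier and the adenine nucleotide carriers bring in its substrates, and VDACs let ATP, ADP and other metabolites cross the outer membrane. Pancreatic acinar cells, which make and secrete digestive enzymes, use mitochondrial ATP for protein synthesis, calcium pumping and exocytosis.

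Of the 91 genes, 85 were bright enough to be tested, and none of the 85 differed between diets at a limma adjusted p under 0.05. The background is low, since 31 of all 7106 genes tested (0.436%) passed. Among the 89 tested probe sets of these genes, 1 passed, a second and dimmer probe set of Vdac1 that fell in ethanol. Over all tested probe sets 0.410% passed. Before adjustment, a limma p under 0.05 was reached by 7 of the 85 genes on the higher side in ethanol (7.64% of all genes) and by 6 on the lower side (11.2% of all genes). The 3 ethanol arrays lay above the 3 control arrays for 17 genes (20%, against 11.0% of all genes) and below them for 9 (10.6%, against 15.4% of all genes). A log2 change above 0 was found for 57 of the 85, where 48.6% of all genes had one.

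Changes of these genes were small and were measured more precisely than those of most genes. Their log2 changes ran from -0.50 to 0.59, with a median of 0.0765, against -0.0112 over all 7106 genes. The median size of a log2 change, sign aside, was 0.15 for these genes and 0.21 for all genes, and the median standard error was 0.15 against 0.18. The 95% interval of the log2 change lay within a 2-fold change either way for 84 of the 85 (98.8%, against 86.9% of all genes). The exception was the complex I accessory subunit Ndufb8, whose interval ran from -0.90 to 1.21. The interval lay within a 1.5-fold change for 52 of the 85 (61.2%, against 40% of all genes). By mean intensity, 66 of the 91 lay above the 90th percentile of probe sets, and their brightest value, 32473, was far below the array maxima of 163449 to 171742. The median intensity of the 85 was 4261, against 1053 for all 7106 genes. No comparison with other genes of like intensity was made, so the small sizes and errors are not shown to be particular to these genes.

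**Figure D1:**
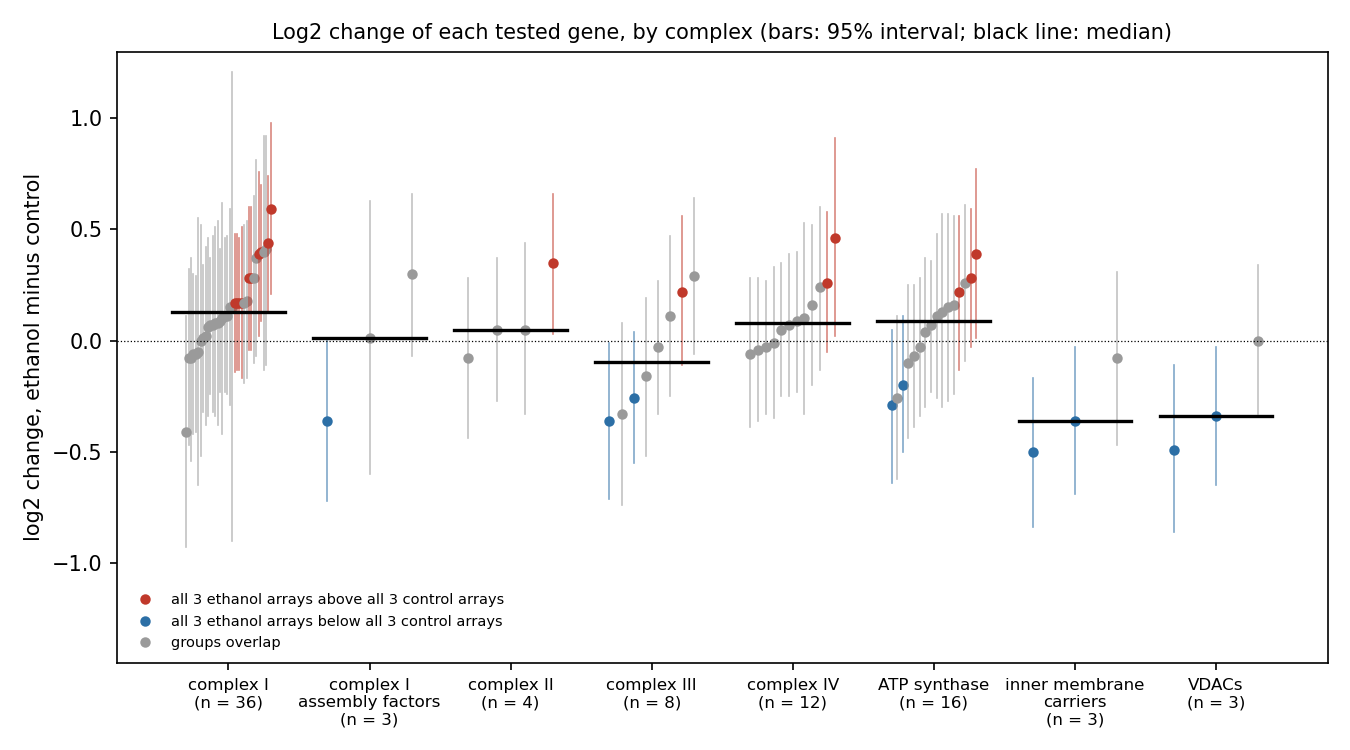
Log2 change (ethanol minus control, y axis) of each of the 85 tested genes by complex (x axis). Points are genes, thin bars 95% intervals and black lines medians; colours show whether the 3 ethanol and 3 control arrays overlap. Complex I points lie mostly above 0 (30 of 36), and the carriers and VDACs lie close to or below 0 (medians -0.36 and -0.342).

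The complexes did not lie on the same side of 0. For complex I, 30 of 36 genes had a positive change (median 0.133), and for complex IV 8 of 12 (median 0.0772). The ATP synthase had 10 of 16 positive (median 0.0883) and complex II 3 of 4 (median 0.0496). Complex III had 3 of 8 positive (median -0.0987). The inner membrane carriers had 0 of 3 positive (median -0.36) and the VDACs 1 of 3, at 0.00 (median -0.342). Leaving out 1 array moved the median of all 85 genes to between 0.0257 (without ethanol replicate 2) and 0.135 (without ethanol replicate 1), and that of complex II to between -0.0201 (without control replicate 3) and 0.138 (without control replicate 2). These medians describe the groups, and no test was made of any group.

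Gene-by-gene accounts begin with the channels and carriers and end with the ATP synthase. The channels and carriers held 4 of the 6 genes with an unadjusted limma p under 0.05 on the lower side (11.2% of all genes). For orientation, the 250 bases before the annotated gene start are shown for those 4 genes and for the pair of complex I genes of smallest p on the higher side. The sequences are from RefSeq (GRCr8), 5′ to 3′ on the gene's strand, at chr10:37032959-37033208 (plus strand) for Vdac1, chr15:2525887-2526136 (minus) for Vdac2, chr7:27506628-27506877 (minus) for Slc25a3, chrX:120897366-120897615 (plus) for Slc25a5, chr6:126888865-126889114 (minus) for Ndufb1 and chr1:210573699-210573948 (minus) for Ndufs8. Capitals mark the GC box letters GGGCGG or their reverse complement CCGCCC.
Vdac1: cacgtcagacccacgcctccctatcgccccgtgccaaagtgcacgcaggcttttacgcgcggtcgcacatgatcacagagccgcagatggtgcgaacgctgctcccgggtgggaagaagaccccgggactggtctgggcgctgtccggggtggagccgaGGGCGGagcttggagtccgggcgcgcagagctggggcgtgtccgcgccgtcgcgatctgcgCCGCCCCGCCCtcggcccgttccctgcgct
Vdac2: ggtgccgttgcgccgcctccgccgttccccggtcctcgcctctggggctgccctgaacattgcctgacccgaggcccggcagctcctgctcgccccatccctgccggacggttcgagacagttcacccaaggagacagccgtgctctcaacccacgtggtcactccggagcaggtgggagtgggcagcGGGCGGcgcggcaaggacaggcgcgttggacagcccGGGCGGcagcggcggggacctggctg
Slc25a3: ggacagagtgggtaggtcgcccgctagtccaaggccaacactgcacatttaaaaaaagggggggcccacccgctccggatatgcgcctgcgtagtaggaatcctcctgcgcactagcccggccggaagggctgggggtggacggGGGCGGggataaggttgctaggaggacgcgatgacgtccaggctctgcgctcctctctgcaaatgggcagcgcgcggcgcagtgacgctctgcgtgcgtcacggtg
Slc25a5: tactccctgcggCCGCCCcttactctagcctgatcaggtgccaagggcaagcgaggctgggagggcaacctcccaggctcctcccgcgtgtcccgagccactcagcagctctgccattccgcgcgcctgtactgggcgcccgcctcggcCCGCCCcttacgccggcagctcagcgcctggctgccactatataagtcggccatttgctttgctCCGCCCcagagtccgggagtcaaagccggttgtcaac
Ndufb1: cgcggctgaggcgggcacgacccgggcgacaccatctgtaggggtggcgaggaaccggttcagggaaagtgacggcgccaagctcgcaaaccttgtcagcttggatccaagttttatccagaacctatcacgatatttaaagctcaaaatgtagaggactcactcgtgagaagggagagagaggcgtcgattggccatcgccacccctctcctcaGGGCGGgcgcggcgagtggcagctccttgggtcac
Ndufs8: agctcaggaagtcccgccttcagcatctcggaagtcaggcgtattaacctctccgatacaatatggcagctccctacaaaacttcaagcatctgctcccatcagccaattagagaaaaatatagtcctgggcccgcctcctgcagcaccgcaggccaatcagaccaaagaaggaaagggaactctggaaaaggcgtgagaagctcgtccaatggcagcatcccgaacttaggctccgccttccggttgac

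GC boxes numbered 3 in the window of Vdac1, 2 in Vdac2, 1 in Slc25a3, 3 in Slc25a5, 1 in Ndufb1 and 0 in Ndufs8. At least 1 was found in 38.3% of the 81 promoters matched to these genes and in 32.4% of all 27457 promoters. Nuclear respiratory factor 1 (NRF1), the ETS factor GABP and YY1 are known regulators of respiratory genes, and a short core of each was searched on both strands. The NRF1 letters GCATGCGC were found in 11.1% of the member promoters, against 2.38% of all. They were in Atp5me, Atp5mg, Atp5po, Ndufa6, Ndufa11, Ndufaf4, Ndufaf5, Sdhb and Uqcrc1. The GABP letters CCGGAAGT were found in 9.88%, against 3.29% of all. They were in Atp5f1a, Cox5b, Cox8a, Ndufa13, Ndufb7, Ndufs1, Uqcrh and Uqcrq. The YY1 letters AAGATGGC were found in 2.47%, against 1.69% of all, in Atp5me and Atp5pf. None of these 3 cores was in the 6 windows printed. A match describes letters in this window and is not evidence of binding.

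VDACs are barrel-shaped pores of the outer membrane. Vdac1, the most studied of them and a docking site for hexokinase, was read by 2 probe sets. On the brighter, intensities were 2346, 3310 and 3040 in ethanol rats, against 4088, 3854 and 4190 in control rats, so the groups did not overlap. Means were 2899 ± 497 in ethanol and 4044 ± 172 in control rats (SD, n = 3 each), with a log2 change of -0.49 (SE 0.16, 95% interval -0.86 to -0.11, limma adjusted p = 0.178).

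On the dimmer probe set, Vdac1 fell. Intensities were 671, 520 and 410 in ethanol rats, against 1202, 1486 and 1335 in control rats. All 3 ethanol arrays were below all 3 control arrays. It averaged 534 ± 131 in ethanol and 1341 ± 142 in control rats (SD, n = 3 each). The log2 difference was -1.27 (SE 0.19, 95% interval -1.71 to -0.83, limma adjusted p = 0.0448). The change was larger than on the brighter probe set by 0.79 on the log2 scale (difference -0.79). The dimmer probe set was singled out by its call on these same arrays, so no test of this difference is given.

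The call on this probe set was close to the threshold. Its limma adjusted p was 0.0245 without ethanol replicate 1, and above 0.05 without ethanol replicate 2 (0.093) or 3 (0.136) and without control replicate 1 (0.154), 2 (0.194) or 3 (0.133), while the log2 change stayed between -1.44 and -1.11 in these fits. With both probe sets of Vdac1 averaged, the log2 change was -0.88 (limma adjusted p = 0.0398). This average includes the dimmer probe set, singled out by its call, so it is not independent of that call.

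Vdac2, which also binds the cell death factor Bak, had intensities of 5773, 6328 and 6659 in ethanol rats, against 8048, 7985 and 7750 in control rats. All ethanol values were lower. Means were 6253 ± 448 in ethanol and 7928 ± 157 in control rats (SD, n = 3 each), with a log2 change of -0.34 (SE 0.13, 95% interval -0.65 to -0.03, limma adjusted p = 0.231). The remaining paralogue, Vdac3, was at 4348, 4947 and 4634 in ethanol rats, against 4862, 4097 and 4953 in control rats. These overlapped throughout, and the log2 change was 0.00 (SE 0.15, 95% interval -0.33 to 0.34, limma adjusted p = 0.99).

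Slc25a3 encodes the carrier that brings phosphate into the matrix. It was at 9175, 9325 and 9662 in ethanol rats, against 12849, 15253 and 12105 in control rats. Every ethanol value was below every control value, and the 3 ethanol values lay close together. Means were 9387 ± 249 in ethanol and 13402 ± 1645 in control rats (SD, n = 3 each), with a log2 change of -0.50 (SE 0.15, 95% interval -0.84 to -0.17, limma adjusted p = 0.145). With a variance trend its limma adjusted p was 0.0316.

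Slc25a4 and Slc25a5 encode adenine nucleotide carriers, which exchange ADP for ATP. Slc25a5, a form found in dividing cells, was at 20746, 18117 and 16857 in ethanol rats, against 23911, 25240 and 22251 in control rats. Again no values overlapped (18573 ± 1984 in ethanol and 23801 ± 1498 in control rats, SD, n = 3 each, log2 change -0.36, SE 0.15, 95% interval -0.69 to -0.03, limma adjusted p = 0.24). Slc25a4, the main form of heart and skeletal muscle, was at 2011, 2200 and 1610 in ethanol rats, against 1777, 2138 and 2228 in control rats. Its groups overlapped (1940.3 ± 301 and 2048 ± 239, SD, n = 3 each), and the log2 change was -0.08 (SE 0.17, limma adjusted p = 0.831).

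**Figure D2:**
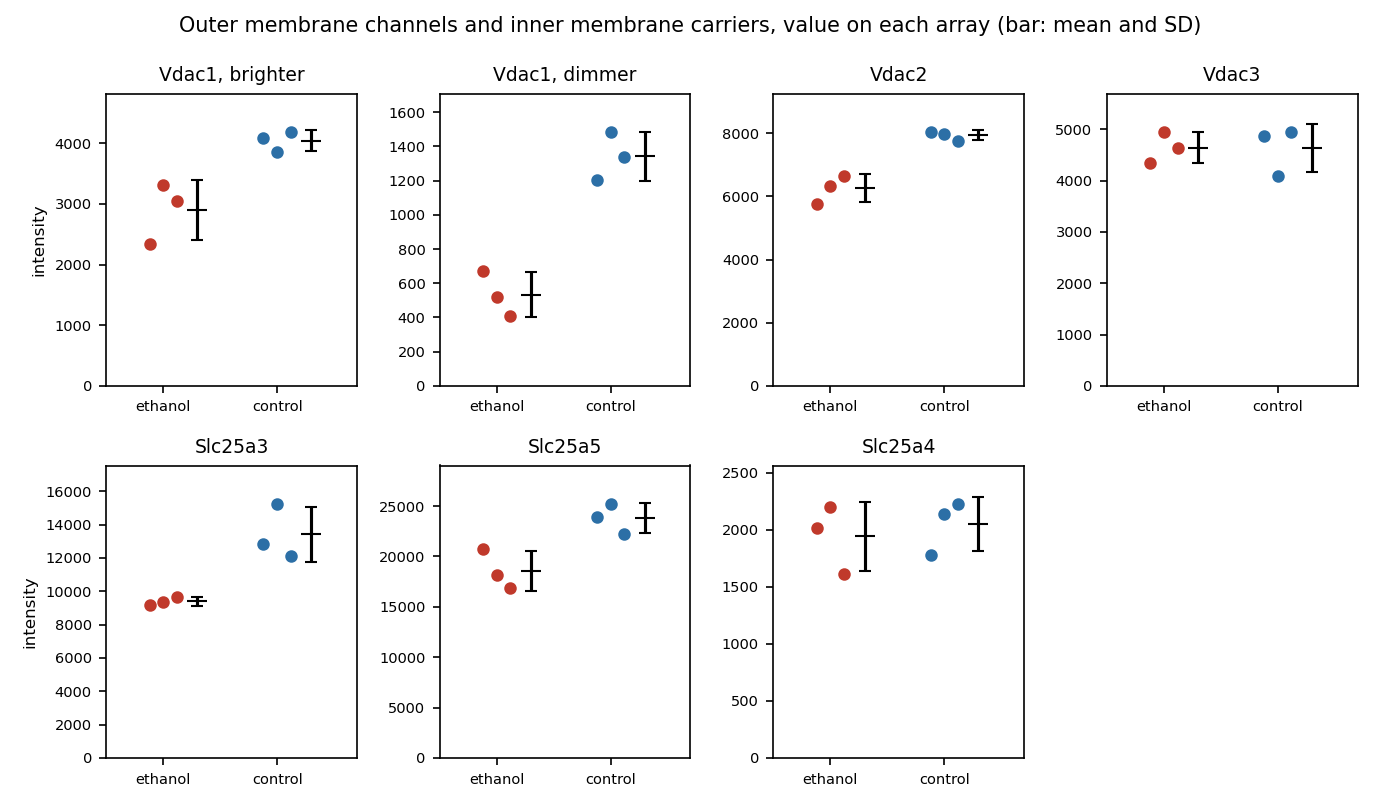
Intensity (y axis, linear, from 0) on each array for both Vdac1 probe sets, Vdac2, Vdac3, Slc25a3, Slc25a5 and Slc25a4, with the ethanol rats left and the control rats right in each panel; bars show mean and SD of 3. Groups separate for Vdac1, Vdac2, Slc25a3 and Slc25a5 and overlap for Vdac3 and Slc25a4. Over all tested genes, 15.4% had all 3 ethanol arrays below all 3 control arrays.

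Complex I, NADH dehydrogenase, consists of a core that carries out electron transfer and proton pumping and of many accessory subunits. All 36 of its genes on the array were tested. Ethanol values were above all control values for 10 of them (27.8%, against 11.0% of all genes) and below for 0 (15.4% of all genes). Taken in either direction, 27.8% did not overlap, near the 26.4% of all genes. Before adjustment, limma gave a p under 0.05 on the higher side for 4 (7.64% of all genes) and on the lower side for 0 (11.2% of all genes). Counted without Ndufa4 and its paralogue Ndufa4l2, which the symbols place here, complex I had 28 of 34 positive changes (median 0.114), 9 genes higher without overlap and 3 with such a p. Complex IV with both had 10 of 14 positive (median 0.0927). The accessory subunits had 25 of 30 positive changes (median 0.153) and the 6 nuclear core subunits 5 of 6 (median 0.0799).

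Ndufb1, a small accessory subunit of the membrane arm, was at 4098, 4917 and 4404 in ethanol rats, against 3278, 2429 and 3180 in control rats. Diets were fully separated (4473 ± 414 in ethanol and 2962 ± 464 in control rats, SD, n = 3 each). Its log2 change of 0.59 was the highest of the 85 (SE 0.17, 95% interval 0.21 to 0.98, limma adjusted p = 0.137).

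Ndufs8, an iron-sulfur core subunit on the electron path, was at 2301, 2291 and 2495 in ethanol rats, against 1828, 1737 and 1636 in control rats. The lowest ethanol value was well above the highest control value (2362 ± 115 in ethanol and 1734 ± 96 in control rats, SD, n = 3 each, log2 change 0.44, SE 0.13, 95% interval 0.13 to 0.74, limma adjusted p = 0.161). The other core subunits did not separate by diet, with log2 changes of 0.18 for Ndufs3, 0.08 for Ndufs1 and Ndufv1, 0.06 for Ndufs7 and -0.08 for Ndufv2.

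Ndufa4, named for complex I and now assigned to cytochrome c oxidase, was at 5908, 6496 and 6148 in ethanol rats, against 4893, 4463 and 4701 in control rats. Every ethanol value was higher (6184 ± 296 in ethanol and 4686 ± 215 in control rats, SD, n = 3 each, log2 change 0.40, SE 0.13, 95% interval 0.09 to 0.70, limma adjusted p = 0.177). Ndufa2, an accessory subunit of the matrix arm, was at 2611, 3520 and 3040 in ethanol rats, against 2554, 2152 and 2244 in control rats. Its lowest ethanol value was just above the highest control value (3057 ± 455 in ethanol and 2317 ± 211 in control rats, SD, n = 3 each, log2 change 0.39, SE 0.16, limma adjusted p = 0.251).

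Ndufa1, the brightest complex I gene, was at 13278, 13557 and 13376 in ethanol rats, against 12361, 11535 and 11908 in control rats. No values overlapped, though the difference was small (13404 ± 142 in ethanol and 11935 ± 414 in control rats, SD, n = 3 each, log2 change 0.17, SE 0.13, limma adjusted p = 0.521). The remaining separated accessory subunits were Ndufb5 (0.28), Ndufc2 (0.28), Ndufb4 (0.17), Ndufb11 (0.17) and Ndufa7 (0.17), none of which passed. The lowest change in the complex was -0.41 for Ndufa8, an accessory subunit of the intermembrane side, whose groups overlapped (1363 ± 397 in ethanol and 1803 ± 329 in control rats, SD, n = 3 each, limma adjusted p = 0.375).

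Ethanol replicate 2 weighed on complex I, and not on it alone. It held the highest value of the 6 arrays for 21 of the 36 complex I genes (58.3%), against 15.3% of all genes. Over the 85 tested genes of the set it was highest for 36 (42.4%). That included 3 of 4 in complex II, 3 of 8 in complex III, 3 of 12 in complex IV and 5 of 16 in the ATP synthase. It was highest for 0 of the 3 carriers and 0 of the 3 VDACs. Ethanol replicate 1 held the lowest value for 12 of the 36 (33.3%), against 22.7% of all genes. The median deviation of the 36 genes from their own means was -0.0863, 0.196 and 0.0818 in ethanol replicates 1, 2 and 3, against -0.0425, -0.0201 and -0.0895 in control replicates 1, 2 and 3. One ethanol array therefore lay within the range of the control arrays. Without ethanol replicate 2 the median change of complex I was 0.0507 and 25 of 36 genes were positive. Without ethanol replicate 1 it was 0.21, and 33 were positive.

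**Figure D3:**
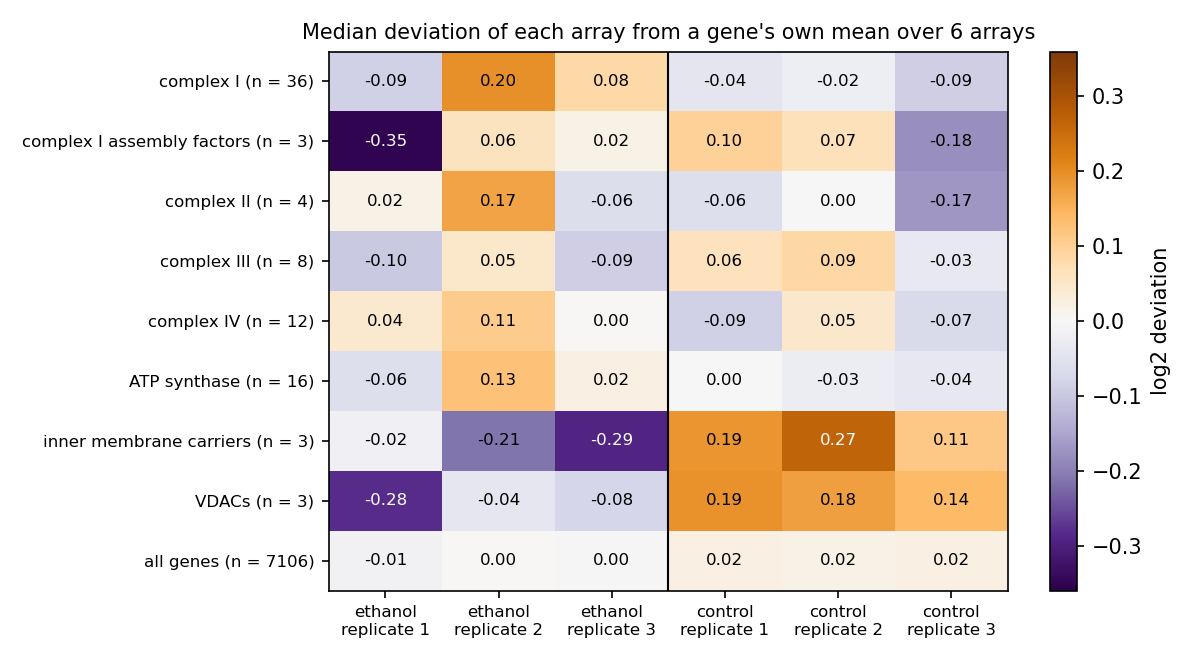
Median, over the tested genes of each complex (rows), of the deviation of each array (columns, ethanol left and control right of the line) from a gene's own mean over 6 arrays, in log2 units. Ethanol replicate 2 is positive for every complex but negative for carriers and VDACs, and the carriers and VDACs are negative on all ethanol and positive on all control arrays.

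Of the 5 complex I assembly factors, which help to build the complex and are not part of it, 3 were tested. Ndufaf4 was at 606, 822 and 654 in ethanol rats, against 936, 914 and 844 in control rats. Its groups did not overlap (log2 change -0.36, SE 0.16, limma adjusted p = 0.272). Ndufaf7 (0.30) and Ndufaf8 (0.01) overlapped. Ndufaf3 and Ndufaf5 were too dim to be tested.

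Complex II, succinate dehydrogenase, belongs to both the citrate cycle and the respiratory chain. Sdha, its flavoprotein, which oxidises succinate, was at 3489, 3728 and 3250 in ethanol rats, against 2661, 2913 and 2629 in control rats. The groups did not overlap (3489 ± 239 in ethanol and 2734 ± 156 in control rats, SD, n = 3 each, log2 change 0.35, SE 0.14, 95% interval 0.03 to 0.66, limma adjusted p = 0.234). The iron-sulfur subunit Sdhb was at 2591 ± 404 in ethanol and 2720 ± 177 in control rats (log2 change -0.08). Sdhc, a membrane anchor and the brightest gene of the complex, was at 3156, 3679 and 3356 in ethanol rats, against 3301, 3486 and 3063 in control rats (log2 change 0.05, SE 0.14). The other anchor, Sdhd, gave 0.05 and 0.09 on its 2 probe sets. These 3 genes overlapped between diets.

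Complex III, which oxidises ubiquinol, divided by the kind of subunit, a grouping made after the values were seen and so not tested. The subunits that carry electrons and the large core proteins all had negative changes (median -0.294), and 3 of the 4 small subunits had positive ones (median 0.166). Cyc1, cytochrome c1, was at 3923, 4667 and 4002 in ethanol rats, against 5331, 6075 and 4829 in control rats. All ethanol values were lower (4197 ± 409 in ethanol and 5412 ± 627 in control rats, SD, n = 3 each, log2 change -0.36, SE 0.15, 95% interval -0.71 to -0.01, limma adjusted p = 0.261).

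The core protein Uqcrc1 was at 5696, 5912 and 5889 in ethanol rats, against 7022, 7053 and 6851 in control rats. Values within each diet lay close together, and the groups did not overlap (5832 ± 119 in ethanol and 6975 ± 109 in control rats, SD, n = 3 each, log2 change -0.26, SE 0.13, 95% interval -0.55 to 0.04, limma adjusted p = 0.328). The Rieske iron-sulfur protein Uqcrfs1 was at 5099 ± 284 in ethanol and 6517 ± 1351 in control rats (SD, n = 3 each, log2 change -0.33), and the core protein Uqcrc2 at 3491 ± 467 in ethanol and 3907 ± 349 in control rats (log2 change -0.16). Both overlapped.

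Among the small subunits, Uqcrq was at 7701, 9466 and 8032 in ethanol rats, against 7009, 6822 and 7694 in control rats. The groups did not overlap, but the lowest ethanol and highest control values nearly touched (log2 change 0.22, SE 0.15, limma adjusted p = 0.454). Uqcr10 gave 0.29 and Uqcr11 0.11, both with overlapping groups. Uqcrh, the hinge protein and the brightest gene of the complex, was at 8654, 7939 and 8276 in ethanol rats, against 8638, 8553 and 8247 in control rats, with overlapping groups (8289.7 ± 358 in ethanol and 8479 ± 206 in control rats, SD, n = 3 each, log2 change -0.03, SE 0.13, 95% interval -0.33 to 0.27).

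**Figure D4:**
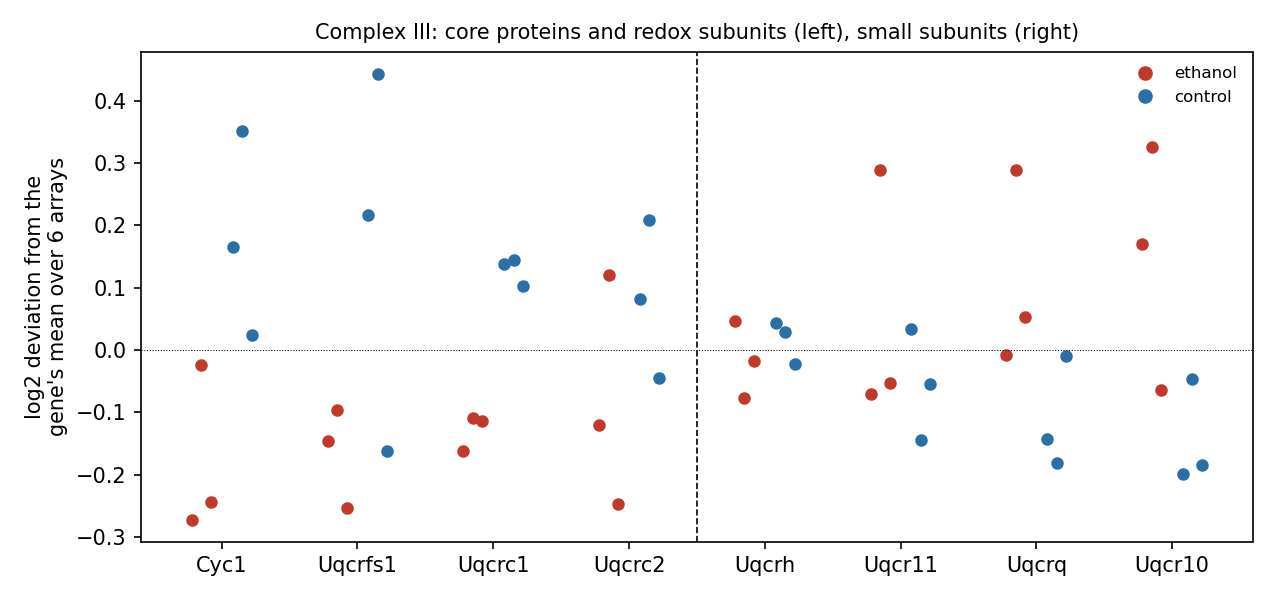
Log2 deviation from the gene's own mean over 6 arrays (y axis) for the 8 complex III genes (x axis), with 3 ethanol arrays left and 3 control arrays right for each gene. Cyc1 and Uqcrc1 have all ethanol points below all control points, and Uqcrq has all of them above.

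In complex IV, cytochrome c oxidase, the subunits encoded in the nucleus surround a catalytic core encoded by mitochondrial DNA. Of its 16 genes on the array, which include the pseudogene Cox6c-ps1, 12 were tested, and log2 changes ran from -0.06 to 0.46. The highest was that of the pseudogene, and the next was 0.26 for Cox5a. For 10 of the 12, the 95% interval lay within a 1.5-fold change. Cox4i1, the brightest and the form found in most tissues, was at 12567, 12412 and 13558 in ethanol rats, against 13142, 13102 and 13137 in control rats. The ethanol values straddled the control values (12846 ± 622 in ethanol and 13127 ± 21.8 in control rats, SD, n = 3 each, log2 change -0.03, SE 0.13, 95% interval -0.33 to 0.27, limma adjusted p = 0.921).

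Cox6c-ps1, annotated as a pseudogene of Cox6c, was at 2003, 1561 and 1522 in ethanol rats, against 1288, 949 and 1439 in control rats (1695 ± 267 in ethanol and 1225 ± 251 in control rats, SD, n = 3 each, log2 change 0.46, SE 0.19, 95% interval 0.02 to 0.91, limma adjusted p = 0.255). Its parent gene Cox6c gave 0.05, and near-identical copies can share signal, so this value is uncertain. Cox5a, a matrix-side subunit, was at 630, 731 and 669 in ethanol rats, against 565, 588 and 513 in control rats (log2 change 0.26, SE 0.14, limma adjusted p = 0.35). Neither gene's groups overlapped. The other tested subunits overlapped, with 0.24 for Cox5b, 0.16 for Cox6b1, 0.10 for the lung form Cox4i2, 0.09 for Cox8a, 0.07 for Cox6a1, -0.01 for Cox7c, -0.04 for Cox7b and -0.06 for the supercomplex factor Cox7a2l.

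The 4 untested genes of complex IV are forms of other tissues. Cox6a2, a heart and muscle form, was below 0 on all 6 arrays. Cox6b2, a testis form, lay between -110 and 34 in ethanol rats and between -59 and 16 in control rats. Cox8b, a muscle and brown fat form, lay between -17 and 86 in ethanol rats and between 19 and 186 in control rats. Cox7a1, also of muscle and brown fat, was at 631, 337 and 381 in ethanol rats, against 319, 345 and 328 in control rats, with ethanol replicate 1 above the rest. On that array the brown adipocyte marker Cidea was at 644, against 275 and 326 on the other ethanol arrays and 333 to 427 on the control arrays. Ucp1, the defining brown adipocyte gene, was not raised there, at 266, 200 and 266 in ethanol rats, against 259, 221 and 286 in control rats, and Cox8b was at -1 on that array. Summed over the 4 brown adipocyte markers, of which Cox7a1 and Cox8b are themselves members, intensity was 812 to 1541 in ethanol and 930 to 1227 in control rats. Ethanol replicate 1 was also the highest array for the adipocyte markers Fabp4 (1846), Cfd (1718) and Lep (314), but not for Plin1 (217). Of the 2 tested muscle markers, Ckm was highest there (1290) and Myh6 was not (527). The part of fat or muscle cells in the Cox7a1 value was not tested.

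The ATP synthase joins a catalytic head, F1, to a membrane rotor and stalks, Fo. Ethanol values lay above all control values for 3 of its 16 genes and below for 2, 31.2% in all, near the 26.4% of all genes whose groups did not overlap in either direction. Atp5me, subunit e of the dimer interface, was at 2657, 3000 and 3441 in ethanol rats, against 2344, 2591 and 1984 in control rats (3033 ± 393 in ethanol and 2306 ± 305 in control rats, SD, n = 3 each, log2 change 0.39, SE 0.17, 95% interval 0.01 to 0.77, limma adjusted p = 0.263). Its dimmer probe set gave 0.38, with overlapping groups. Atp5mk, another small membrane subunit, was at 6383, 6274 and 5794 in ethanol rats, against 5070, 4827 and 5266 in control rats (log2 change 0.28, SE 0.13, limma adjusted p = 0.31). Atp5po, which joins the peripheral stalk to the head, gave 0.22 (2992 ± 418 in ethanol and 2548 ± 81 in control rats, SD, n = 3 each).

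Lower without overlap were Atp5mc3 and Atp5f1b. Atp5mc3, one of the genes for the rotor's c subunit, was at 7771, 9561 and 9445 in ethanol rats, against 9971, 11469 and 11342 in control rats (log2 change -0.29, SE 0.15, limma adjusted p = 0.337). Atp5f1b, the catalytic beta subunit, was at 16479, 14414 and 14805 in ethanol rats, against 17124, 17297 and 17849 in control rats (log2 change -0.20, SE 0.13, limma adjusted p = 0.471). The other F1 subunits overlapped, with 0.04 for Atp5f1a, -0.07 for Atp5f1c, 0.11 for Atp5f1d and 0.07 for Atp5f1e. All 5 F1 subunits had a 95% interval within a 1.5-fold change.

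Atp5if1, which blocks ATP hydrolysis by the enzyme, was read by 3 probe sets that did not give the same picture. The brightest was at 24601, 32473 and 31738 in ethanol rats, against 29041, 21664 and 29402 in control rats. These overlapped (29604 ± 4348 in ethanol and 26702 ± 4367 in control rats, SD, n = 3 each, log2 change 0.15, SE 0.18, limma adjusted p = 0.694). A dimmer one was at 1090, 890 and 854 in ethanol rats, against 719, 666 and 622 in control rats, without overlap (log2 change 0.46, SE 0.15, limma adjusted p = 0.17). The dimmest, below the level for testing, gave -0.07. The dimmer of the Ndufv3 pair was likewise untested and of opposite sign (-0.20, against 0.11).

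**Figure D5:**
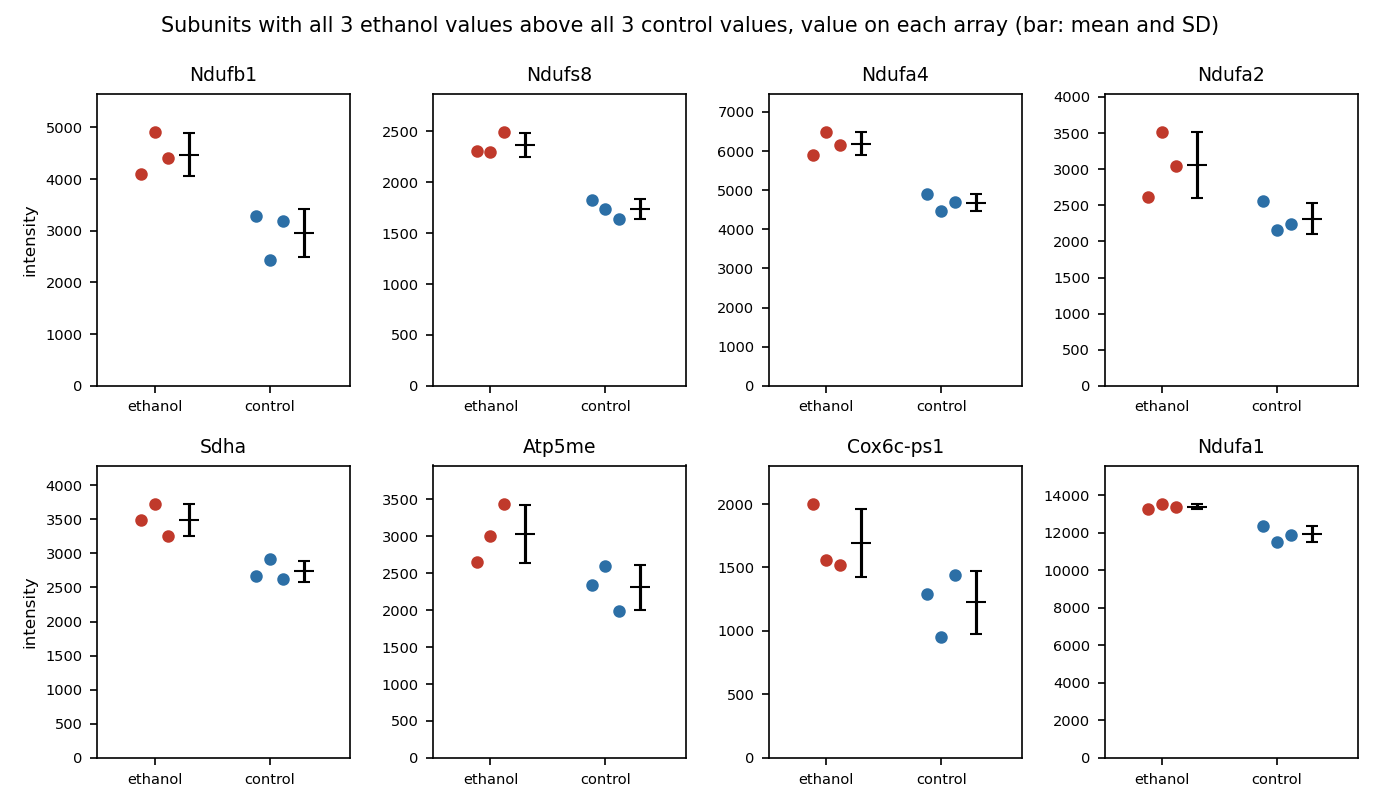
Intensity (y axis, linear, from 0) on each array for Ndufb1, Ndufs8, Ndufa4, Ndufa2, Sdha, Atp5me, Cox6c-ps1 and Ndufa1, with ethanol rats left and control rats right; bars show mean and SD of 3. All 3 ethanol values lie above all 3 control values in each panel, and none of these genes passed the test over all probe sets.

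Beyond the subunits, 3 further lists of mitochondrial genes were read from the same fit, and none of their members passed at a limma adjusted p under 0.05. Of 30 tested assembly factors, limma before adjustment gave a p under 0.05 on the higher side for 2 (7.64% of all genes) and on the lower side for 7 (11.2% of all genes), with 10 of 30 changes positive (median log2 change -0.114). Cox17, the copper chaperone of complex IV, was at 845, 1154 and 900 in ethanol rats, against 484, 435 and 709 in control rats (log2 change 0.79, SE 0.21, limma adjusted p = 0.122). Uqcc2, an assembly factor of complex III, gave 0.53 (SE 0.15) without overlap. Higd1a, a hypoxia-induced protein that binds complex IV, was at 1305, 1567 and 1087 in ethanol rats, against 1990, 1962 and 2077 in control rats (log2 change -0.60, SE 0.16, limma adjusted p = 0.133). The other 6 lower ones were Cox18 (-1.14, the largest change of the list), Atpaf1 (-0.86), Sdhaf1 (-0.51), Oxa1l (-0.44), Dmac1 (-0.36) and Surf1 (-0.32), also without overlap.

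Of 13 tested regulators of mitochondrial DNA expression and biogenesis, 1 had such a p, on the lower side, against 11.2% of all genes (11 of 13 negative, median -0.253). The one lower was Polg2, the accessory subunit of the mitochondrial DNA polymerase, at a log2 value of -0.58 for ethanol minus control (SE 0.16, limma adjusted p = 0.133). Of 29 tested genes of electron entry, uncoupling and other carriers, 3 had one on the higher and 7 on the lower side, against 7.64% and 11.2% of all genes (median -0.208). The smallest p values belonged to the glutamate carrier Slc25a22 (-0.52, SE 0.13), the carrier Slc25a14 (0.66, SE 0.18) and the uncoupling protein Ucp2 (-0.68, SE 0.21).

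A pair of probe sets carries the symbols COX1 and COX2, taken here as the complex IV core subunits encoded by mitochondrial DNA. COX1 was at 75468, 81342 and 83915 in ethanol rats, against 67838, 63872 and 70094 in control rats (log2 change 0.25, SE 0.13, limma adjusted p = 0.352). COX2 was at 88710, 85911 and 87869 in ethanol rats, against 80132, 82193 and 85831 in control rats (log2 change 0.08, SE 0.13, limma adjusted p = 0.769). Neither overlapped, and for COX2 the gap was narrow.

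The tissue label was checked against markers, and the acinar protease Cpa1 lay between 162409 and 168642 in ethanol rats and between 161528 and 166828 in control rats, at the top of the range. Of 7 skeletal and heart muscle markers, 2 were bright enough to be tested, and neither separated by diet. Ckm lay between 714 and 1290 in ethanol rats and between 879 and 994 in control rats, and Myh6 between 406 and 762 in ethanol rats and between 379 and 533 in control rats. Myh7 was below 0 on 5 of the 6 arrays, and the summed list was at 1471 to 2655 in ethanol and 1983 to 2137 in control rats. Of the 4 erythroid markers, 3 were higher in ethanol at an unadjusted limma p under 0.05 (7.64% of all genes). The remaining one, Slc4a1, overlapped (log2 change 0.18, SE 0.26). The summed intensity of all 4 was 25617 to 33312 in ethanol rats and 15433 to 22883 in control rats, without overlap. Summed acinar markers were at 1273450 to 1324416 in ethanol and 1266507 to 1282981 in control rats, and islet markers at 115767 to 181731 in ethanol and 148753 to 182168 in control rats. The brightest enzymes make up most of the acinar sum. Of the 11 acinar markers, 1 was higher in ethanol at an unadjusted limma p under 0.05 (7.64% of all genes) and 0 were lower (11.2% of all genes). This was Ptf1a (log2 change 0.45, SE 0.14, limma adjusted p = 0.161), without overlap. Pnlip also separated, at 0.10, and the other acinar markers overlapped. The 4 lymphocyte markers, all too dim to be tested, also summed without overlap, at 1011 to 1152 in ethanol and 723 to 817 in control rats. Singly, only Cd3d separated, while Cd3e, Cd79b and Ptprc overlapped. The mean of Ptprc was lower in ethanol (201 ± 42.8 in ethanol and 241 ± 136 in control rats, SD, n = 3 each). Of the adipocyte markers, Cfd was at 1718, 1069 and 1079 in ethanol rats, against 780, 663 and 856 in control rats (log2 change 0.69, SE 0.21, limma adjusted p = 0.158), while Fabp4 gave -0.13 with overlapping groups. Summed adipocyte markers overlapped, at 2270 to 4095 in ethanol and 2347 to 2685 in control rats. The part of such shifts in the values above was not tested. In whole pancreas, fewer cells of a type and less RNA per cell cannot be told apart. The 3′ to 5′ signal ratio, a measure of RNA integrity, was 1.54 to 1.78 for beta-actin in ethanol rats and 1.44 to 2.01 in control rats, and for GAPDH 1.52 to 1.87 and 1.63 to 2.11.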

How the data were processed

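Rat pancreas from 6 animals was measured on single-colour arrays. Per the labels, total RNA was isolated with a column kit and made into biotin-labelled cRNA. The intensities deposited by the authors are linear whole numbers, of which 931 to 949 per array lie below 0, and the array medians are 543 to 544. The sources used here do not give the scanner, the software or any normalization. Of 15866 probe sets left after 57 controls, 12783 carry 1 gene symbol in the platform annotation. Symbols of all 91 genes were the same in RefSeq (GRCr8). A further 9 probe sets, annotated to several genes of which at least 1 meets the rule, were not used.

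Values below 0 were set to 0, 50 was added and log2 taken, so changes of dim probe sets are understated. The 9520 probe sets whose mean log2 value reached the 40th percentile entered the test in limma 3.58.1 (R 4.3.3, 2 groups, empirical Bayes), with Benjamini-Hochberg adjustment over all of them. An adjusted p under 0.05 was a call, and log2 changes are ethanol minus control. The procedure was tested on simulated data. The number of arrays limits the precision. Members and lists were chosen with earlier results of these data known. Given in full are genes with any called probe set, the 12 of smallest p, all VDACs and carriers, Cyc1 and the brightest gene of each complex. Other separated genes, and a few at the extremes, were named after their values were seen, as were the complex III grouping and the promoter motifs. Counting Ndufa4 and Ndufa4l2 with complex IV was an alternative added after seeing the data. Alternatives were other constants, another floor, normalizations, filters, a variance trend, a replicate block, averaged probe sets and each array left out. Same-numbered arrays of both diets did not deviate together (r of -0.0295, 0.0259 and -0.138), so the numbers were not taken as pairs.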

Additional observations from a re-analysis of the deposited data

How the results depend on the processing

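With 3 rats for each diet, small changes cannot be resolved, and array background limits dim probe sets. The count of probe sets passing limma at an adjusted p under 0.05 was 39. It was 12 with a constant of 20, 0 without a filter (with 2263 of 15866 at an unadjusted p under 0.05), 134 with a filter at the 60th percentile, 249 with a variance trend, 6 with the replicate block and 228 at an adjusted p under 0.10, and ran from 2 to 38 with an array left out. Of the respiratory genes' probe sets, the 1 that passed (Vdac1) was lost, giving 0, with a constant of 20 (adjusted p = 0.0525), no filter (0.168) or the replicate block (0.13), and 2 passed with a variance trend; the count was 0 to 1 with an array left out. Of the genes on their brightest probe sets, 0 passed, but 1 did with a variance trend (Slc25a3) and 1 with averaged probe sets (Vdac1). The replicate block changed no other call of a named gene.

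The median of the 3 complex I assembly factors ran from -0.272 to 0.223 with an array left out, the one median that moved by more than the spread between replicates. That spread is wide, and with an array left out the others ran from 0.0257 to 0.135 for all genes of the set, 0.0507 to 0.21 for complex I, -0.0201 to 0.138 for complex II, -0.14 to -0.0571 for complex III, 0.0369 to 0.104 for complex IV, 0.0347 to 0.0967 for the ATP synthase, -0.443 to -0.293 for the carriers and -0.388 to -0.286 for the VDACs. Positive complex I subunits numbered 25 to 33. Genes higher without overlap numbered 17, against 31 without ethanol replicate 1 (36.5%, with 17.1% of all genes) and 26 without control replicate 2 (30.6%, with 14.7% of all genes). Genes lower numbered 9, against 15 without ethanol replicate 2 (17.6%, with 21.3% of all genes). Values near 0 changed sign. Vdac3 was at -0.00727 with quantile normalization, and ran from -0.081 (without control replicate 2) to 0.0544 (without control replicate 3), with -0.0414 without ethanol replicate 2. Slc25a4 ran from -0.177 (without control replicate 1) to 0.0443 (without ethanol replicate 3). Leave-one-out values were below 0 for Sdhc without ethanol replicate 2 (-0.0106) and control replicate 3 (-0.000808), and Cox4i1 was at 0.00366 with quantile normalization. The cause of these shifts was not tested.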
